A study of Mus musculus with 15 samples.

Results

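This account covers 10 genes of iron uptake, storage and transport in the whole blood of mice, out of 55416 gene identifiers in the series. The members were Tfrc, Steap3, Slc11a2, Slc25a37 and Slc25a38, which bring iron or heme precursors into developing red cells and their mitochondria, Fth1 and Ftl1, which store iron, and Slc40a1, Hmox1 and Slc11a1, which release or move iron in cells that take up red cells or microbes. They were chosen by symbol and not by a rule on their values, though earlier results of these data were known. All 10 were found among the identifiers of the files.

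Whole blood RNA of 15 C57BL/6 mice was sequenced, with 1 library per mouse and 5 mice per group. In the early ND group, mice had received 2 doses of αCTLA-4 (an antibody that blocks an inhibitory receptor of T cells) and an early neck dissection (ND, surgical removal of the lymph nodes that drain the mouth). In the late ND group, mice had received the same 2 doses and the neck dissection was late. The third group was untreated. The labels give all 3 groups, untreated included, wild-type animals with tongue tumors of 4MOSC1, a single mouse oral squamous carcinoma line, grown for 10 days, and the methods describe the transplanted mice as females a few weeks old. The study asked whether the order of immunotherapy and neck dissection changes the blood transcriptome. Its text and its figure legend differ on whether the late ND mice had been operated on when they were bled, so "late ND" names the group only.

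Iron enters a developing red cell bound to transferrin, is freed and reduced in the endosome, leaves it through a divalent metal transporter and is carried into mitochondria, where heme is made. Old red cells are eaten by macrophages, which open the heme ring and return the iron to plasma or store it in ferritin. Circulating reticulocytes, the youngest red cells of blood, can still hold RNA of genes of the first set, and neutrophils and monocytes can hold RNA of the second. Whether each member follows such cells in these libraries is described further on. Several of these mRNAs carry an iron-responsive element, a short hairpin that the iron regulatory proteins bind when iron is scarce. In a 5′ UTR it blocks translation, and in a 3′ UTR it protects the mRNA.

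The hairpins found in members are shown because their UTR separates the members that carry them. In some the mRNA level is under this control and in others the translation, and RNA counts can reflect only the mRNA level. The UTRs of coding transcripts were searched on the transcript strand for a C, any 5 bases, CAGTGN and 5 bases that pair with the first 5 (G with T allowed). In each 29-base stretch below, from GRCm39 with the GENCODE vM39 annotation, 5′ to 3′, capitals mark the CAGTGN loop. Tfrc had 4 matches in its 3′ UTR, and Fth1, Ftl1 and Slc40a1 each had 1 in a 5′ UTR:
Tfrc, chr16:32450037-32450065 (+): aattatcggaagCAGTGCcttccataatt
Tfrc, chr16:32450416-32450444 (+): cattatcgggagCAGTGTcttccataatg
Tfrc, chr16:32450481-32450509 (+): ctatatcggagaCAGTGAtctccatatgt
Tfrc, chr16:32450528-32450556 (+): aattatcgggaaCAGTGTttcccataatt
Fth1, chr19:9960096-9960124 (+): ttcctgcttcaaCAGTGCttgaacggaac
Ftl1, chr7:45109203-45109231 (-): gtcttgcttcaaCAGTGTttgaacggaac
Slc40a1, chr1:45964625-45964653 (-): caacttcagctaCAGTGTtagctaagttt
The other 6 members had no such letters in their UTRs, and neither had any of the 60 other iron genes described further on. Of 21594 coding genes searched, 210 (0.972%) had a match, 47 of them (0.218%) in a 5′ UTR and 163 (0.755%) in a 3′ UTR. A match is a description of the letters and not a measurement of binding. The search finds only hairpins of this exact form, so a gene without a match may still carry an element of another form.

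Blood libraries differed in how much red cell RNA they held, which touches each result below. The 4 hemoglobin genes took 48.4% ± 12.6 (SD, n = 5) of gene counts in untreated mice, 48.5% ± 10.4 (SD, n = 5) in early ND mice and 22.0% ± 6.73 (SD, n = 5) in late ND mice. Gene counts ran from 5527108 to 7182346 per early ND library, from 7849602 to 13924361 per late ND library and from 5862888 to 10796099 per untreated library. Libraries untreated 2, late 2 and late 3 were poor in 18S sequence, at under 2000 CPM of Rn18s-rs5 scaled by the library total. Of the erythroid markers found (19 genes), the summed level was 7496 to 35392 CPM (counts scaled to a fixed library size after TMM normalization, which assumes that most genes do not change, the unit of all levels here unless said otherwise) in early ND mice, 7284 to 40169 in untreated mice and 2431 to 5343 in late ND mice. The neutrophil list (15 genes) summed to 2619 to 8195 CPM in early ND, 4840 to 12659 in untreated and 6165 to 16586 in late ND mice, and the monocyte list (14 genes) to 1935 to 4835, 2163 to 3351 and 4024 to 5452 CPM. In late against early ND, 1 of 4 hemoglobin genes passed lower, and 2 of 15 neutrophil and 3 of 14 monocyte genes passed higher. None passed among the marker genes tested there for T cells (10), B cells (10), platelets (9), skin (4 of 11 found) and iron-recycling macrophages (5 of 12). The macrophage markers summed to only 6.07 to 21.1 CPM over all libraries, with Vsig4, Timd4, Clec4f and Marco under 10 counts in every library.

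Between late and early ND blood, Slc25a37 and Ftl1 were lower in late ND mice, by 2.58-fold and 2.47-fold, and these 2 of the 10 members passed the test. Tfrc was also at a lower level and Hmox1 and Slc11a1 at a higher level in late ND, but these 3 did not pass after adjustment. The other 5 members differed by at most 0.71 on the log2 scale. Each comparison was fitted across all genes with edgeR's quasi-likelihood test, and a gene was called at a Benjamini-Hochberg adjusted p under 0.05. Of 13315 genes tested in this comparison, 663 were called (4.98%), 333 higher (2.5%) and 330 lower (2.48%). The median log2 fold change was -0.08 over the 10 members and 0.01 over all genes tested. In whole blood, fewer cells of a type and less RNA per cell cannot be told apart, and this holds for every difference given here.

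Against untreated mice, Ftl1 and Tfrc were lower in late ND blood, by 2.41-fold and 1.697-fold, and again 2 of 10 members passed, of 406 called among 13547 genes (3%; 134 higher, 0.989%, and 272 lower, 2.01%). This comparison shares its late ND libraries with the one above, so the pair are not independent. Between early ND and untreated blood, none of the 9 members tested passed, and the log2 fold changes ran from -0.30 (Slc40a1) to 0.24 (Slc11a2). Among all 12151 genes tested there, edgeR called 0 (0%), DESeq2 called 0, and 539 (4.44%) had an unadjusted p under 0.05. Steap3 did not pass the filter on low counts in that comparison.

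**Figure D1:**
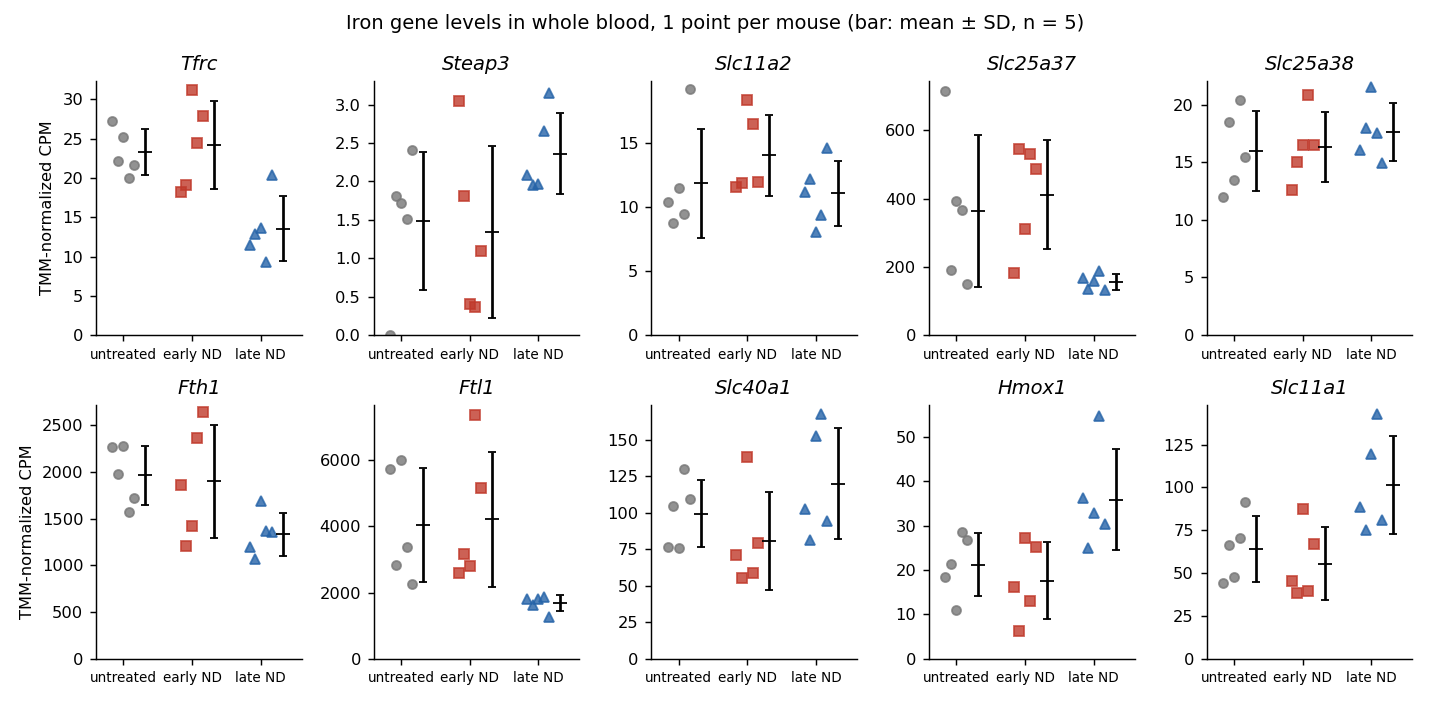
TMM-normalized CPM (y axes, linear from 0) of the 10 iron genes in each mouse of the untreated (gray circles), early ND (red squares) and late ND (blue triangles) groups; bars give the mean ± SD of 5 mice. The late ND points of Ftl1 lie below every point of both other groups, and those of Slc25a37 lie close together at 134 to 189 CPM.

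Slc25a37 encodes mitoferrin-1, which carries iron into the mitochondria of developing red cells (ENSMUSG00000034248, chr14:69479297-69522561, - strand). Its level was 715, 192, 393, 366 and 149 CPM in untreated mice 1 to 5. In early ND mice 1 to 5 it was 181, 546, 310, 530 and 488 CPM, and in late ND mice 167, 134, 159, 189 and 134 CPM. The late ND mice were alike, at 156 ± 23.5 CPM (SD, n = 5), while the early ND mice were spread at 411 ± 159 (SD, n = 5) and the untreated at 363 ± 224 (SD, n = 5). Early 1 and untreated 5 lay within the late ND range. Slc25a37 fell by 1.37 on the log2 scale from early to late ND (SE 0.26, edgeR adjusted p = 0.0182). The call was lost without early 4 (adjusted p = 0.0549) and without late 3 (adjusted p = 0.0517). Against untreated mice the log2 fold change was -1.21 (SE 0.34, adjusted p = 0.0892), which did not pass, and without untreated 5 it was -1.41 and passed (adjusted p = 0.0148). 

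Slc25a38, which imports glycine for the first step of heme synthesis (ENSMUSG00000032519, chr9:119939387-119955157, + strand), had similar levels in all groups. The untreated mice had 12.02, 18.5, 13.5, 20.4 and 15.4 CPM, the early ND mice 12.6, 15.02, 16.5, 20.9 and 16.5, and the late ND mice 16.1, 17.9, 21.6, 17.5 and 14.9. The groups overlapped, with late 3 the highest of all mice, and the log2 fold change was 0.16 against early ND (SE 0.15, adjusted p = 0.558) and 0.12 against untreated mice (SE 0.16, adjusted p = 0.776).

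Tfrc encodes the transferrin receptor, through which red cell precursors and dividing cells take up iron (ENSMUSG00000022797, chr16:32427556-32451612, + strand). It stood at 27.2, 22.1, 25.2, 20.0 and 21.7 CPM in untreated mice and at 18.2, 19.2, 31.2, 24.5 and 27.8 CPM in early ND mice. In late ND mice it stood at 11.5, 12.9, 13.6, 9.35 and 20.3 CPM. Of the late ND mice, only late 5 reached the range of the other groups, above early 1, early 2 and untreated 4. The log2 fold change against untreated mice was -0.76 (SE 0.19, adjusted p = 0.0486) and passed, whereas that against early ND was -0.81 (SE 0.22, adjusted p = 0.0519) and did not. The call against untreated mice held in 1 of 10 fits that each left out 1 library, the one without untreated 5, and the adjusted p ran from 0.0480 to 0.123. Against early ND, Tfrc passed without late 5 (log2 fold change -1.02, adjusted p = 0.0337). Scaled by library totals, Tfrc turned to 0.09 against early ND and 0.21 against untreated mice, but on that scaling the median of all genes was 0.86 and 0.91, and relative to it Tfrc was at -0.77 and -0.70.

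Slc11a2 encodes DMT1, the transporter that lets iron out of the endosome (ENSMUSG00000023030, chr15:100285776-100322953, - strand). Its level was 10.4, 8.74, 11.5, 9.43 and 19.3 CPM in untreated, 11.6, 11.9, 18.4, 16.5 and 11.97 in early ND and 11.2, 12.2, 8.03, 9.42 and 14.6 in late ND mice. Untreated 5 was the highest of its group, and the groups overlapped. The log2 fold change was -0.31 against early ND (SE 0.19, adjusted p = 0.362) and -0.09 against untreated mice (SE 0.23, adjusted p = 0.900); with library totals these were 0.57 and 0.83, which is -0.29 and -0.08 relative to the median of all genes.

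Steap3, the reductase that prepares endosomal iron for transport (ENSMUSG00000026389, chr1:120118487-120200435, - strand), was near the limit of detection. Untreated mice had 0, 26, 6, 9 and 15 counts, early ND mice 24, 11, 3, 1 and 5, and late ND mice 23, 49, 45, 36 and 50. In late ND mice these were 2.08, 1.96, 1.96, 2.65 and 3.15 CPM. The groups overlapped, with early 1 at 3.05 CPM, and late 5 was the highest of all mice. The count of 0 in untreated 1 allows a level of up to 1.20 CPM (3 counts, counting error only). The log2 fold change was 0.71 against early ND (SE 0.43, adjusted p = 0.345) and 0.53 against untreated mice (SE 0.39, adjusted p = 0.546).

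Ftl1, the light chain of ferritin, which helps iron to mineralize inside the shell (ENSMUSG00000050708, chr7:45107367-45109308, - strand), had the highest level of the members. It was 5722, 2847, 6009, 3364 and 2268 CPM in untreated mice. It was 2597, 3159, 2806, 7372 and 5151 CPM in early ND mice and 1797, 1619, 1814, 1862 and 1272 CPM in late ND mice. Every late ND mouse lay below every mouse of both other groups. Ftl1 was the only one of the 10 members whose late and early ND groups did not overlap; of all genes tested, 2.93% were separate in that direction. Against untreated mice Ftl1 was again the only member without overlap, beside 2.98% of all genes lower in this way. Ftl1 fell by 1.31 on the log2 scale against early ND (SE 0.31, adjusted p = 0.0354) and by 1.27 against untreated mice (SE 0.29, adjusted p = 0.0404). Against early ND the adjusted p was 0.0596 to 0.0802 without early 4, early 5, late 1, late 3, late 4 or late 5, and under the threshold without each of the others. Against untreated mice it was 0.0673 to 0.105 without any library but untreated 2 and untreated 5.

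Part of the Ftl1 locus is annotated on both strands. Gm10252, on the + strand, covers 26.5% of the exon bases of Ftl1, and the strand setting of the counting was not given in the sources used here. Over the 15 libraries 296356 counts were on Gm10252 and 362114 on Ftl1, a ratio of 0.757 to 0.869 per library, so that reads from Ftl1 and from its opposite gene cannot be told apart. Gm10252 was called lower as well, with log2 fold changes of -1.32 against early ND (SE 0.31, adjusted p = 0.0329) and -1.24 against untreated mice (SE 0.28, adjusted p = 0.0403). The 15 other ferritin copies in the annotation held 1126 counts in all, which is 0.189% of those on Fth1 and Ftl1. Gm36913, opposite 41.5% of the exon bases of Fth1, had 7 counts. Opposite-strand genes also cover 29.95% of the exon bases of Slc25a37, and of these Gm27223 and Gm31748 had 0 counts.

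Fth1, the heavy chain of ferritin, which oxidizes iron for storage (ENSMUSG00000024661, chr19:9957911-9962462, + strand), was less different between the groups. It was at 2265, 1980, 2276, 1576 and 1721 CPM in untreated mice and at 1863, 1210, 1422, 2361 and 2641 CPM in early ND mice. In late ND mice it was at 1192, 1074, 1684, 1370 and 1358 CPM. Early 2 and early 3 were within the late ND range, as was untreated 4. Fth1 had a log2 fold change of -0.49 against early ND (SE 0.24, adjusted p = 0.253) and -0.55 against untreated mice (SE 0.19, adjusted p = 0.154); with library totals the values were 0.43 and 0.40, which is -0.43 and -0.51 relative to the median of all genes.

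Slc11a1, known as NRAMP1, pumps iron and manganese out of the phagosome of macrophages and neutrophils (ENSMUSG00000026177, chr1:74414303-74425448, + strand). Its level was 44.1, 66.2, 47.9, 70.4 and 91.5 CPM in untreated mice and 45.5, 38.5, 87.3, 39.6 and 67.0 CPM in early ND mice. In late ND mice it was 88.4, 75.4, 119.6, 142.8 and 81.0 CPM. Each late ND mouse was above 4 of the 5 mice of either other group, and early 3 and untreated 5 were within the late ND range. Slc11a1 had a log2 fold change of 0.88 against early ND (SE 0.25, adjusted p = 0.0629) and 0.65 against untreated mice (SE 0.22, adjusted p = 0.149). Without early 3 it was 1.11 against early ND (adjusted p = 0.0156), and without untreated 5 it was 0.81 against untreated mice (adjusted p = 0.0491).

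Hmox1 encodes heme oxygenase 1, which opens the heme ring and frees its iron (ENSMUSG00000005413, chr8:75820241-75827217, + strand). It stood at 18.4, 21.3, 10.9, 28.5 and 26.8 CPM in untreated mice and at 16.1, 6.27, 27.3, 12.9 and 25.2 CPM in early ND mice. In late ND mice it stood at 36.2, 24.8, 32.9, 54.8 and 30.4 CPM. All late ND mice but late 2 were above every mouse of the other groups. Hmox1 had a log2 fold change of 1.02 against early ND (SE 0.33, adjusted p = 0.0841) and 0.73 against untreated mice (SE 0.25, adjusted p = 0.149). Without early 3 it was 1.26 and passed (adjusted p = 0.0301).

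Slc40a1 encodes ferroportin, the iron exporter of the cell membrane (ENSMUSG00000025993, chr1:45947211-45965683, - strand). The untreated mice had 76.5, 104.3, 76.0, 129.9 and 109.3 CPM. The early ND mice had 71.4, 55.1, 137.8, 58.6 and 79.2 CPM and the late ND mice 102.8, 81.2, 152.2, 167.8 and 94.5 CPM. Early 3, the mouse also highest for Slc11a1 and Hmox1 in its group, stood well above the other early ND mice. The log2 fold change was 0.58 against early ND (SE 0.27, adjusted p = 0.214) and 0.26 against untreated mice (SE 0.22, adjusted p = 0.603), and without early 3 it was 0.88 against early ND (adjusted p = 0.0264). In DESeq2's Wald test, which called 1439 of 13315 genes in late against early ND, 5 members passed. Slc25a37, Ftl1 and Tfrc were lower and Hmox1 and Slc11a1 higher.

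Between genes, levels can be compared only per kilobase of exon. On this scale (RPKM, from the TMM-normalized counts) Ftl1 led in all groups, with means of 3014 RPKM in untreated, 3145 in early ND and 1247 in late ND mice, followed by Fth1 at 558, 540 and 379 RPKM. The exon length of Ftl1 includes the stretch that Gm10252 shares, and that of Fth1 the stretch opposite Gm36913. These lengths, 1341 bases for Ftl1 and 3520 for Fth1, count every annotated exon base. The gap between the 2 per kilobase therefore depends on the annotation. Slc25a37 came next, at 60.3, 68.2 and 26.0 RPKM, with an exon length that includes stretches shared with opposite-strand genes. In untreated and early ND mice it stood above the ranges of Slc11a1, Hmox1 and Slc40a1, but in late ND mice its range overlapped that of Slc11a1, which was at 25.5 RPKM. Slc11a1, Hmox1 and Slc40a1 overlapped as neighbors in each group. Tfrc and Slc25a38 overlapped at 3.29 and 3.22 RPKM in untreated mice and at 3.42 and 3.29 in early ND mice, whereas in late ND mice Slc25a38 (3.56 RPKM) lay above Tfrc (1.91 RPKM) with no shared range. Slc11a2, at 1.00 to 1.27 RPKM, and Steap3, at 0.182 to 0.319 RPKM, were the lowest in each group.

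Ratios of paired genes inside a library do not depend on how libraries are scaled. With 2 counts added to each gene, they depend slightly on library depth where counts are low. Pairs were compared over 4 ratios and 3 comparisons with exact permutation tests (two-sided, 5 against 5 mice), whose smallest possible p is 0.00794, and Benjamini-Hochberg adjustment over the 12. The log2 ratio of Slc11a2 to Slc11a1, paralogs for the endosome and the phagosome, was -1.95, -1.67, -2.23, -1.22 and -2.44 in early ND mice and -2.96, -2.62, -3.88, -3.90 and -2.46 in late ND mice. With these added counts the late ND mice were all below the early ND mice, by 1.26 on average (exact permutation test, p = 0.00794, adjusted p = 0.0476). Early 5 and late 5 were nearly level, and their order rests on the added counts. Slc11a2 and Slc11a1 had 55 and 308 counts in early 5, and 232 and 1286 in late 5. From these raw counts the ratio was slightly higher in late 5. The log2 ratio of Slc25a37 to Slc25a28, the mitoferrin of other tissues, was 2.88, 4.41, 3.67, 3.99 and 4.34 in early ND and 2.72, 2.11, 2.29, 2.81 and 2.31 in late ND mice. Here too the groups did not overlap, and the difference was -1.41 (exact permutation test, p = 0.00794, adjusted p = 0.0476). Slc25a28 itself had a log2 fold change of 0.17 (SE 0.12, edgeR adjusted p = 0.426).

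For the ferritin chains the difference did not pass. The log2 ratio of Ftl1 to Fth1 was 1.09 ± 0.45 (SD, n = 5) in early ND, 0.95 ± 0.46 (SD, n = 5) in untreated and 0.33 ± 0.31 (SD, n = 5) in late ND mice. Its late minus early difference was -0.76 (exact permutation test, p = 0.0238, adjusted p = 0.0714), and -0.91 without early 1 (exact permutation test, adjusted p = 0.0476). The log2 ratio of Steap3 to Steap4, a reductase abundant in neutrophils, differed by -0.48 between late and early ND (exact permutation test, p = 0.603, adjusted p = 0.745). Against untreated mice none of the 4 ratios passed; the Slc25a37 to Slc25a28 difference was -1.20 (exact permutation test, adjusted p = 0.0714), and -1.44 without untreated 2 (exact permutation test, adjusted p = 0.0317). Both called ratios lost the call when nearly any single mouse was left out. Leaving out a mouse cannot make separate groups overlap, and 4 mice against 5 can be divided in fewer ways. These losses therefore do not measure how far a ratio rests on 1 mouse. The adjusted p values were then 0.0635 to 0.0952 for Slc11a2 to Slc11a1 and 0.0476 to 0.0952 for Slc25a37 to Slc25a28 (exact permutation tests). Without early 1 the latter kept its call.

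**Figure D2:**
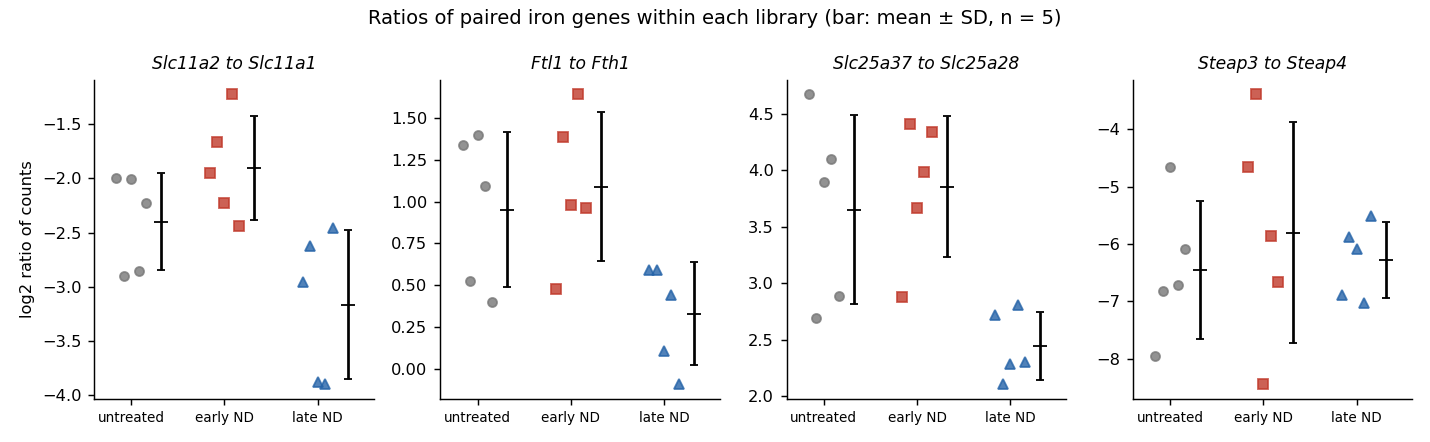
Log2 ratio of the counts of 2 genes in each library (y axes, log2 scale), with untreated mice in gray, early ND in red and late ND in blue; bars give the mean ± SD of 5 mice. With 2 counts added to each gene, each late ND mouse lies below each early ND mouse for Slc11a2 to Slc11a1 and for Slc25a37 to Slc25a28. For Slc11a2 to Slc11a1, late 5 and early 5 are nearly level, and their order rests on the added counts.

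Most red cell markers fell. Of 16 erythroid markers tested in late against early ND, 14 passed, all lower, with a median log2 fold change of -2.36, beside 0.01 for all genes tested. Taken relative to the mean log2 level of the erythroid list in the same library, Slc25a37 was higher in late than in early ND by 0.59, Ftl1 by 0.66, Tfrc by 1.04 and Fth1 by 1.42. Of the members, 5 did not overlap between late and early ND on this measure, all higher (Slc11a2, Slc25a38, Slc40a1, Hmox1 and Slc11a1), but so did 56.3% of all genes tested. Relative to the neutrophil and monocyte lists, Slc11a1 differed between late and early ND by only 0.10, Slc40a1 by -0.20 and Hmox1 by 0.34, and their groups overlapped. On that measure Slc25a37 (-2.09), Ftl1 (-2.03), Tfrc (-1.65) and Fth1 (-1.26) were lower with no overlap, as were 11.4% of all genes tested. These differences carry no test.

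Within the groups the members followed different cell genes. Deviations of log2 CPM from the group means over the 15 libraries gave a Pearson r with Alas2, the red cell enzyme that starts heme synthesis, of 0.93 for Slc25a37 and 0.90 for Ftl1, but of 0.31 for Fth1 and 0.04 for Tfrc. With S100a8, an abundant neutrophil gene, r was 0.93 for Hmox1, 0.85 for Slc40a1 and 0.82 for Slc11a1. Slc40a1 and Slc11a1 had an r of 0.92 with each other, and Hmox1 had 0.79 with Slc40a1 and 0.82 with Slc11a1. Steap3 had an r of -0.69 with Alas2, from counts as low as 0 in untreated and 1 in early ND mice. With Alas2, r was -0.24 for Slc11a2 and 0.04 for Slc25a38. Of the members named first for red cells and their mitochondria, only Slc25a37 followed Alas2. The points share a library each, with its depth and its mix of cells, and no p is attached.

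**Figure D3:**
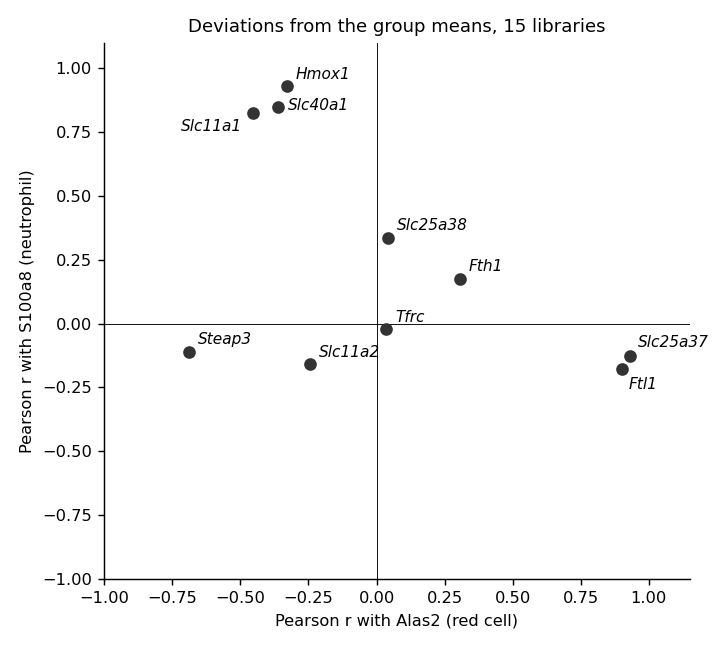
Pearson correlation of each iron gene with Alas2 (x axis) and with S100a8 (y axis), from deviations of log2 CPM from the group means in 15 libraries; 1 point per gene. Slc25a37 and Ftl1 lie at the right, Hmox1, Slc40a1 and Slc11a1 at the top, and Tfrc near 0 on both axes.

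Among 9510 genes with a mean of at least 5 CPM, the genes most like each member on the same measure (15 libraries) were found. For Slc25a37 they were Bsdc1, Ccndbp1 and Tent5c (r = 0.97 each), and for Ftl1 they were Gm10252 (0.99), Marchf2 (0.98) and Gm10244 (0.97). For Hmox1 they were Ifnlr1, Ppp1r3d and Lrg1 (0.98 to 0.96), for Slc40a1 Bin3, Pla2g7 and Nlrp12 (0.97 each) and for Slc11a1 Pigb, Kcnj2 and Slc35a5 (0.97 to 0.96). For Fth1 they were Nptn, Hpgd and Gm22953 (0.95 to 0.89), for Slc25a38 Khdc4, Gm15491 and Gm49668 (0.94 to 0.85) and for Slc11a2 Zdhhc6, Vkorc1l1 and Grsf1 (0.91 to 0.90). For Steap3, whose counts were near the limit of detection, they were Klrc1, Mrps26 and Gm16861 (0.92 to 0.88). Tfrc was least matched, with Slain2 (0.83) and Timmdc1 (0.71) among the genes most like it. These genes have the highest r of 9510, each from 15 libraries, and so many values can hold a high r by chance. Whether any of them exceeds that was not tested.

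The other genes of iron handling were read from 7 lists of 60 genes, of which 45 passed the filter in late against early ND. There 1 was called higher and 7 lower, beside 2.5% and 2.48% of all genes. Against untreated mice the same 7 were lower, beside 2.01% of all genes, and 0 higher. In early ND against untreated mice, 0 of 41 tested passed in edgeR. The median log2 fold change of the 45 was 0.05 against early ND and -0.03 against untreated mice.

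Iron-sulfur cluster assembly had the most calls, 4 of 10 tested, all lower, beside 2.48% of all genes. The erythroid markers had a median log2 fold change of -2.36 in this comparison. Whether the cluster genes moved apart from red cell genes was not tested. Glrx5, which hands new clusters on, fell from 245.8 ± 146.2 CPM (SD, n = 5) in early ND to 54.1 ± 14.2 (SD, n = 5) in late ND mice (log2 fold change -2.16, SE 0.37, adjusted p = 0.0126). Isca1, which matures clusters for mitochondrial enzymes, fell by 2.21 on the log2 scale (SE 0.36, adjusted p = 0.0126). Iscu, the scaffold on which clusters are built, fell by 1.71 (SE 0.31, adjusted p = 0.0141), and Hscb, its co-chaperone, by 2.03 (SE 0.33, adjusted p = 0.0126). In all of these late and early ND mice did not overlap, beside 2.93% of all genes tested that were lower in this way. Of the rest of this list, Nfs1 (-0.20), Isca2 (-0.02) and Nfu1 (0.04) did not pass.

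Ncoa4, the receptor that delivers ferritin to the lysosome for release of its iron, was the only 1 of 4 storage and turnover genes called, at 533.3 ± 237.1 CPM (SD, n = 5) in early ND, 474.0 ± 346.9 (SD, n = 5) in untreated and 108.1 ± 43.2 (SD, n = 5) in late ND mice (log2 fold change against early ND -2.28, SE 0.35, adjusted p = 0.0124). Of 13 heme transport and breakdown genes, Slc48a1, the heme carrier HRG1, fell by 2.08 (SE 0.35, adjusted p = 0.0126) and Blvrb, a biliverdin reductase, fell by 1.94 (SE 0.41, adjusted p = 0.0250). Trf, which encodes transferrin, rose by 1.07 (SE 0.25, adjusted p = 0.0323), from 24.8 ± 4.85 CPM (SD, n = 5) in early ND to 51.7 ± 20.7 (SD, n = 5) in late ND mice, as the single call among 9 uptake genes. Against untreated mice Trf had a log2 fold change of 0.90 (SE 0.24, adjusted p = 0.0653). No gene passed among the iron sensors (3 tested), the export and systemic control genes (3 tested) or the siderophore and iron-binding genes of neutrophils (3 tested). The sensors Aco1 and Ireb2, which bind the hairpins shown above, had log2 fold changes of 0.38 (adjusted p = 0.202) and 0.04 (adjusted p = 0.874).

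**Figure D4:**
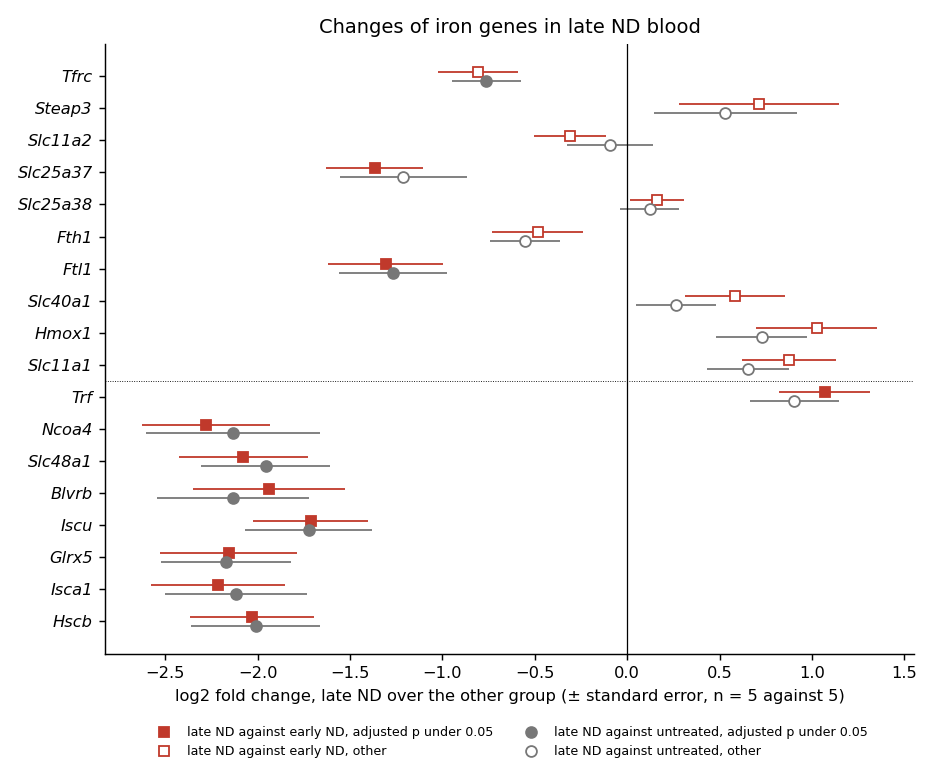
Log2 fold change ± standard error (x axis) of the 10 members, above the dotted line, and of the 8 other iron genes that passed in either late ND comparison, below it; red squares are late against early ND, gray circles late ND against untreated mice, and filled symbols have an adjusted p under 0.05 (edgeR, 5 mice against 5). Slc25a37 and Ftl1 lie to the left of the other members, and 7 of the 8 other genes lie further left.

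The calls of members, like those of all genes, depended on which libraries and covariates were in the fit. With the hemoglobin and 18S genes removed before scaling, Slc25a37 (-1.39, adjusted p = 0.0171), Ftl1 (-1.33, adjusted p = 0.0346) and Tfrc (-0.83, adjusted p = 0.0476) were called against early ND, beside 573 of 13286 genes. Without the libraries poor in 18S sequence, 0 members were called in either late ND comparison. Of all genes, 4 of 13440 were called there against early ND and 0 of 13051 against untreated mice, from fewer libraries. Slc25a37 was at -1.33 (adjusted p = 0.0691) and Ftl1 at -1.36 (adjusted p = 0.0884) against early ND. Ftl1 was at -1.42 (adjusted p = 0.150) and Tfrc at -0.77 (adjusted p = 0.246) against untreated mice. With the hemoglobin share of each library as a covariate, Slc25a37 was at -0.19 (adjusted p = 0.933) and Ftl1 at 0.05 (adjusted p = 0.989) against early ND. In that fit 0 of 13315 genes were called. The hemoglobin share did not overlap between late and early ND mice, so the share and the group cannot be told apart. Without the libraries richest in skin genes (untreated 5, early 3 and late 5), 6 members were called against early ND, beside 1214 of 13168 genes. The 3 lower were Slc25a37, Ftl1 and Tfrc and the 3 higher were Slc40a1, Hmox1 and Slc11a1.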

How the data were processed

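Whole blood RNA (cheek bleed, total RNA, paired-end reads) was aligned by the authors with STAR 2.7.9 to GRCm39, sorted with SAMtools 1.7 and counted per gene with HTSeq-count 0.13.5. The authors deposited raw counts per gene and library. The strand setting and annotation release were not given in the sources used here. The 5 counter lines of each file that name no gene were left out. Symbols came from GENCODE vM39 (54749 of 55416 identifiers matched). Pairs of groups were compared with edgeR 4.0.16 in R 4.3.3 (filterByExpr, TMM, quasi-likelihood test, Benjamini-Hochberg over all genes tested). Alternatives included DESeq2 1.42.0, other scalings and filters, and leaving out libraries. Levels used TMM over 15 libraries. Log2 levels and likeness used a prior count of 2, as did the ratios. The fit was tested on simulated data. No libraries of a group agreed within sampling noise. Intervals and floors cover counting error only.

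The members, gene lists and tests were chosen with earlier results of these data known. The text names all members, other listed iron genes past the threshold, the genes of the ratios and the 3 genes most like each member, apart from a few items that are not reported here; cell type markers and genes on the opposite strand are named beside the results they touch.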

Additional observations from a re-analysis of the deposited data

Results flagged for a closer look

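Of 30 sets of 5 mice (10 members in 3 groups), 1 held a mouse far from the others, where chance alone gives about 1 in 20. Steap3 had 0 counts in untreated mouse 1, while the other 4 untreated mice had 6 to 26 counts, or 1.52 to 2.41 CPM. The gap to the nearest mouse was 0.837 of the range of the group, above the limit of 0.710 for 5 mice. At this library's depth a count of 0 allows up to 1.20 CPM.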

How the results depend on the processing

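Library totals in place of TMM moved the median of all genes to 0.86 (late against early ND) and 0.91 (late ND against untreated mice). The calls moved with it, to 9060 of 13315 and 7574 of 13547 genes. In each, 5 of the 10 members were called, all of them higher. In early ND against untreated mice library totals gave 3 genes. Tfrc then stood at 0.09 and 0.21, Slc11a2 at 0.57 and 0.83, and Fth1 at 0.43 and 0.40. In late against early ND, DESeq2 called 1439 of 13315 genes and 5 members, and no filter on low counts 1282 of 28650 and 5. The fit without the 18S-poor libraries called 4 genes and 0 members, and that with the hemoglobin share 0 and 0. The fit without the skin-rich libraries, chosen after seeing the data, called 1214 of 13168 genes and 6 members. In late ND against untreated mice, DESeq2 called 810 of 13547 genes and 4 members. The fits without the 18S-poor libraries and with the hemoglobin share called 0 genes and 0 members each. There 1 member was called without hemoglobin and 18S genes (386 of 13905 genes) and 1 with all 15 libraries in one fit (321 of 13421 genes). Without the skin-rich libraries 4 members were called (471 of 13688 genes).

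Leaving out 1 mouse at a time gave 145 to 1610 genes and 0 to 5 members (late against early ND), 0 to 593 and 0 to 4 (late ND against untreated) and 0 to 0 of both (early ND against untreated, with 331 to 1182 genes at an unadjusted p under 0.05). With the hemoglobin share, Steap3 turned to -0.13 and Ftl1 to 0.05 in late against early ND, and Steap3 to -0.02, Slc25a37 to 0.28 and Slc25a38 to -0.23 in late ND against untreated mice. There Slc11a2 turned to 0.06 without the skin-rich libraries and ran from -0.23 to 0.18 over single mice left out. In early ND against untreated mice, where no member passed under any setting, Slc25a38 was 0.03 with the replicate block and 0.05 without the 18S-poor libraries, Ftl1 was -0.05 without the latter and Tfrc was -0.08 without the skin-rich ones. Over single mice left out, Tfrc ran from -0.06 to 0.15, Slc25a37 from -0.02 to 0.57, Slc25a38 from -0.10 to 0.09, Fth1 from -0.20 to 0.07 and Ftl1 from -0.24 to 0.23. The ratio of Slc25a37 to Slc25a28 in early ND against untreated mice was -0.03 without the 18S-poor libraries and ran from -0.03 to 0.46, and that of Steap3 to Steap4 was -0.13 in late ND against untreated mice, where it ran from -0.21 to 0.61, and ran from -1.14 to 0.12 in late against early ND. Neither called ratio passed with a prior count of 0.5 (exact permutation tests, adjusted p = 0.0714) or without the 18S-poor libraries, at -1.20 for Slc11a2 to Slc11a1 and -1.24 for Slc25a37 to Slc25a28 (exact permutation tests, adjusted p = 0.206 each). Without the 18S-poor libraries fewer mice were left, which raises the smallest possible p, so that loss says little about the ratios. Except where given here, the causes were not tested.

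Correlations between the deviations of mice that share a number were -0.20 to 0.59 in late against early ND, 0.02 to 0.64 in late ND against untreated mice and -0.36 to 0.08 in early ND against untreated mice. In no comparison was every pair over 0.1, the limit set for pairing, so the numbers were not taken to pair the mice. With the replicate block 673 genes and 3 members were called against early ND, where Ftl1 was not called (adjusted p = 0.0691) and Tfrc (0.0356) and Slc11a1 (0.0487) were called beside Slc25a37. Against untreated mice it gave 607 genes and 3 members, with Slc25a37 called (adjusted p = 0.0424) beside Ftl1 and Tfrc, and in the third comparison 0.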
